A study of Saccharomyces cerevisiae and Schizosaccharomyces pombe with 8 samples.

Results

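Divergent upstream transcripts are RNAs that leave a promoter region in the direction opposite to its gene. In the fission yeast Schizosaccharomyces pombe they were read here from their polyadenylated 3' ends. A cleavage position was counted as divergent when it lay on the strand opposite to a coding gene, 1 to 500 nt upstream of that gene's start codon. It also had to lie outside every annotated coding or RNA gene of its own strand and outside the 500 nt downstream of each such gene. This rule uses positions and annotation and no read number. It chose 5907 of 324518 nuclear S. pombe positions, and 2856, 3324, 1036 and 1261 of them had reads in the PAB2 mutant, the PCF11 mutant, wild type in minimal medium and wild type in rich medium. They fell in the windows of 1072 coding genes. Of 5113 coding genes, 1859 had at least 1 eligible base upstream, 787 of these had no divergent read in any library, and 3254 had no eligible base. The eligible sequence came to 549483 nt, with a median of 287 nt per window and 577 windows at the full 500 nt.

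The series compared alternative polyadenylation in the yeasts S. cerevisiae and S. pombe by sequencing the 3' ends of polyadenylated RNA, and its 4 S. cerevisiae libraries were not used here. The 4 S. pombe libraries were a PAB2 mutant in rich medium, a PCF11 mutant in minimal medium, wild type in minimal medium and wild type in rich medium, with 1 library each. The labels name each strain as mutant or wild type and give no allele, strain background or temperature. With 1 library per group there was no test between groups and no replicate spread. The intervals below are 95% intervals that cover counting error only, and they say nothing of how much another culture would differ.

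Promoters in fission yeast often start transcription in both directions, and the RNA that leaves upstream is usually short, is cleaved and polyadenylated early, and is degraded in the nucleus. Pab2 is the nuclear poly(A)-binding protein, which brings polyadenylated noncoding and meiotic RNAs to the nuclear exosome, the main nuclear RNA-degrading complex. Pcf11 is a subunit of the cleavage and polyadenylation machinery that binds RNA polymerase II and is needed for cleavage and for transcription termination. A higher 3' end count can come from more transcription, less decay or a changed site of cleavage, and these 3' end reads cannot tell them apart.

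The cleavage sites that carried the main changes are shown first, because the same sites come back in the results below. Each run reads 5' to 3' on the strand of the divergent RNA and comes from the RefSeq ASM294v3 chromosomes. The runs of 76 nt have the most used cleavage position as base 46, and the runs of 30 nt, given where a coding transcript is annotated on the other strand, have it as base 28. Read numbers given below for a site count all positions within 24 nt of that position. Capitals mark AATAAA, the canonical poly(A) signal, 10 to 35 nt before the site, and GTA, the letters read by the fission yeast termination factor Seb1, in the 30 nt after it. The first 5 led the PCF11 mutant, the next 4 rose in the PAB2 mutant, and the last was among the highest windows in wild type.
SPAC10F6.17c window, I:1242031-1242060, plus strand: tgtAATAAAttatttattgactatgaaact
atp3 window, II:1085709-1085784, minus strand: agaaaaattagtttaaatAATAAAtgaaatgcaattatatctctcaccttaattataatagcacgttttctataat
utp24 window, II:1460382-1460457, plus strand: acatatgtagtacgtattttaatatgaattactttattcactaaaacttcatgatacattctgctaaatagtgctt
gda1 window, I:1697931-1697960, minus strand: tgAATAAAtgaacgcgattttatgataatt
pcf11 window, I:2258875-2258904, plus strand: agtcaagtatgataaattatctaaccgata
tms1 window, II:291982-292057, plus strand: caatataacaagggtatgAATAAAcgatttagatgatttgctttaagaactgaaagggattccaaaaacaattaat
sbh1 window, II:3441834-3441909, plus strand: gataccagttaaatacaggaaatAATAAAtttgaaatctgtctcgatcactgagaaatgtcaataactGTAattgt
cdc48 window, I:1305957-1306032, minus strand: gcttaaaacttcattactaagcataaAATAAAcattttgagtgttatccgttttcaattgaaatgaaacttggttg
gea1 window, II:3880158-3880187, plus strand: aaaataacaaatcagggtttctacggtatg
SPCC569.03 window, III:2431558-2431633, plus strand: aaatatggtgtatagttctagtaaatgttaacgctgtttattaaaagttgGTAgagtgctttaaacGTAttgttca
The SPAC10F6.17c and gda1 runs are short and so show only the bases up to just past the site. The utp24, pcf11, gea1 and SPCC569.03 runs have no AATAAA in the searched stretch. The gea1 site is followed, beginning 11 nt past it, by a run of 10 A in the genome, which the short run does not reach. Whether this run bears on the reads at the site was not tested.

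The libraries held 4488357, 3414864, 2702105 and 3647664 reads in the PAB2 mutant, the PCF11 mutant, wild type in minimal medium and wild type in rich medium. The pab2 gene had 156 own-strand reads in the PAB2 mutant and 218 in wild type in rich medium, and pcf11 had 204 in the PCF11 mutant and 92 in wild type in minimal medium. Reads at the 3' end do not show whether either protein was made, so these values do not check the labels. Divergent reads were 12164 in the PAB2 mutant, 29563 in the PCF11 mutant, 2758 in wild type in minimal medium and 3870 in wild type in rich medium. They made up 0.271% (Wilson interval 0.266% to 0.276%) of nuclear reads in the PAB2 mutant, 0.866% (0.856% to 0.876%) in the PCF11 mutant, 0.102% (0.0985% to 0.106%) in wild type in minimal medium and 0.106% (0.103% to 0.110%) in wild type in rich medium. Both mutants thus stood above both wild-type libraries, and the wild-type intervals overlapped.

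In the PAB2 mutant, divergent upstream RNA was 2.55-fold its level in wild type in the same medium (counting interval 2.46 to 2.65), and in the PCF11 mutant it was 8.47-fold (8.15 to 8.81). Minimal over rich medium in wild type gave a ratio of 0.962 (0.916 to 1.01). Levels are RPM, reads per 1000000 nuclear reads, and per kb of eligible sequence they were 4.93 in the PAB2 mutant, 15.8 in the PCF11 mutant, 1.86 in wild type in minimal medium and 1.93 in wild type in rich medium. The order held at equal depth. With every library thinned to 2697953 reads, 646 windows had reads in the PAB2 mutant, 779 in the PCF11 mutant, 435 in wild type in minimal medium and 435 in wild type in rich medium.

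**Figure D1:**
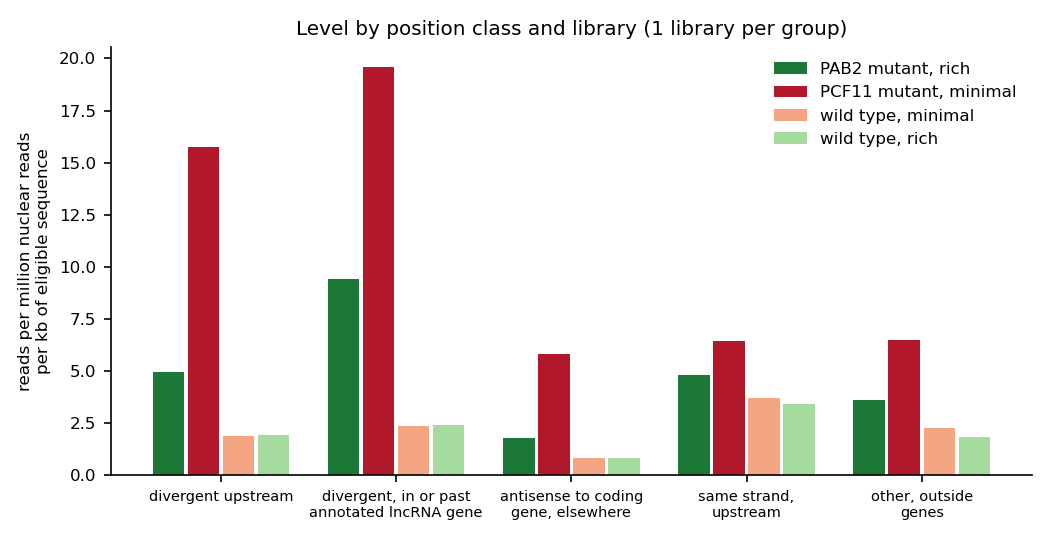
Level of each class of position, in RPM per kb of eligible sequence, with 1 bar per library. For divergent upstream positions the bars stand at 4.93, 15.8, 1.86 and 1.93, and the class of the same strand upstream of start codons shows smaller gaps between mutants and wild types.

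Coding genes on their own strand, which hold most reads, had a ratio of 0.963 for the PAB2 mutant over wild type and 0.877 for the PCF11 mutant over wild type. Positions that meet the divergent rule except that they lie in or just past an annotated long noncoding RNA gene numbered 22154, and their ratios were 3.92 and 8.26 for the PAB2 and the PCF11 mutant. Antisense positions within the bounds of coding genes elsewhere gave 2.18 and 7.28. Positions upstream of a start codon on the gene's own strand gave 1.41 and 1.74, and all other positions outside genes gave 1.98 and 2.89. The divergent ratio thus lay above the same-strand upstream ratio in both mutants, beyond counting error. It lay below the ratio of long noncoding RNA genes in the PAB2 mutant and close to it in the PCF11 mutant. The annotation used here holds long noncoding RNA genes in large number, so the positions described here are the divergent RNAs that no such gene covers.

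The reads were unevenly spread over windows. Of the 1072 windows, 181 had 1 read over the 4 libraries, 266 had 2 to 4, 315 had 5 to 19, 214 had 20 to 99, and 96 had at least 100. The 10 highest windows of each library held 22.7% of divergent reads in the PAB2 mutant, 45.7% in the PCF11 mutant, 33.2% in wild type in minimal medium and 35.9% in wild type in rich medium. In 268 windows every library had reads. The mutants had reads in 166 further windows where neither wild type did, 94 windows had reads in the PAB2 mutant alone and 210 in the PCF11 mutant alone. Only 62 windows had reads in a wild type and in neither mutant, and the mutant libraries differ from the wild types in depth as given above.

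In the PAB2 mutant the rise was broad. Of 177 windows with at least 20 reads in the pair, 130 were higher past 2-fold and 6 were lower past 2-fold, on the log2 scale of reads plus 1, scaled to nuclear reads. By the same rule on their own-strand reads, 4.13% of 4573 coding genes were higher and 13.0% lower. The median log2 ratio was 1.83 over these windows and -0.22 over the coding genes. A window can pass the minimum through the mutant alone, so these counts describe the windows and support nothing about all members. With the 193 windows that had at least 20 reads in the PCF11 mutant and wild type in minimal medium together, which this comparison does not use, 129 were higher and 8 lower, with a median log2 ratio of 1.49, against 4.09% and 12.7% of 4478 coding genes.

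The PCF11 mutant rose more, and its rise rested more on single windows. Of 193 windows with at least 20 reads in the pair, 160 were higher past 2-fold and 14 lower, against 10.1% of 4478 coding genes higher and 49.8% lower. The median log2 ratio was 3.80 over these windows and -0.99 over the coding genes, so most coding genes had a lower RPM in this mutant than in wild type. Chosen instead on the PAB2 mutant and wild type in rich medium, 177 windows gave 100 higher and 31 lower with a median log2 ratio of 1.61, against 9.12% and 50.3% of 4573 coding genes. The windows of SPAC10F6.17c and atp3 together held a large share of the PCF11 reads, and without them the ratio of summed levels was 6.13 (5.88 to 6.38) in place of 8.47. Scaling by coding genes with the trimmed mean of M-values (TMM) in place of nuclear reads put the log2 ratio of the PCF11 mutant at 3.97 in place of 3.08.

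In wild type, minimal over rich medium, 67 windows had at least 20 reads in the pair. Of these, 5 were higher and 11 lower past 2-fold, against 4.22% and 1.85% of 4531 coding genes, and the median log2 ratio was -0.08 over windows and 0.08 over genes. Over every window with a read in the pair and with no minimum, the PAB2 mutant was the higher library in 639 windows and the lower in 182, and the PCF11 mutant was the higher in 707 and the lower in 210. Wild type in minimal medium was the higher in 294 and the lower in 308 against rich medium.

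**Figure D2:**
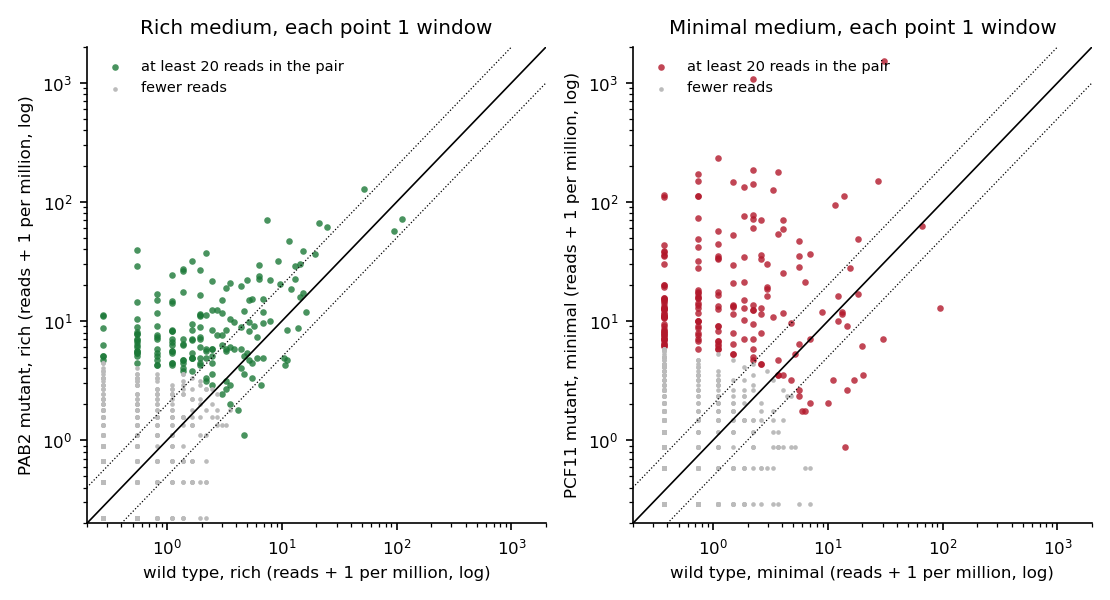
Each point is 1 window, with reads plus 1 as RPM on log axes in the mutant (vertical) and in wild type of the same medium (horizontal), and grey for windows with fewer than 20 reads in the pair. The solid line marks equal levels and the dotted lines 2-fold. Of the coloured points, 130 of 177 lie above the upper dotted line for the PAB2 mutant and 160 of 193 for the PCF11 mutant.

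The mutants were set against different wild-type libraries. In 114 windows both pairs had at least 20 reads, and 75 of these were higher past 2-fold in both mutants. These made up 86.2% of the 87 that were higher in the PAB2 mutant and 88.2% of the 85 that were higher in the PCF11 mutant. For comparison, 76.3% of the 114 windows were higher in the PAB2 mutant and 74.6% in the PCF11 mutant.

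The window with the highest mean level belonged to SPAC10F6.17c, a predicted phosphatase of pyruvate dehydrogenase, at chromosome I. It had 273 reads in the PAB2 mutant, 5194 in the PCF11 mutant, 83 in wild type in minimal medium and 89 in wild type in rich medium. The PCF11 mutant was far above the rest, with a ratio of 49.4 (39.8 to 62.2) over wild type, and the window supplied 17.6% of that library's divergent reads. The PAB2 mutant had a ratio of 2.49 (1.95 to 3.20). Nearly all PCF11 reads of the window, 5177, ended at the site printed above, 403 nt upstream of the start codon and 1873 nt past the end of igo1, the nearest coding gene upstream on the same strand. The igo1 gene itself, which encodes an endosulfine that restrains a phosphatase at the entry into mitosis, had 120, 80, 121 and 117 reads in the PAB2 mutant, the PCF11 mutant, wild type in minimal medium and wild type in rich medium. The divergent site in the PCF11 mutant thus had more reads than the upstream gene had in any library. The alg13 gene is annotated on the other strand at this site, so its reads are also antisense to alg13.

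The window of atp3, which encodes the gamma subunit of the mitochondrial F1-ATPase, was high in the PCF11 mutant alone. It had 10 reads in the PAB2 mutant, 3672 in the PCF11 mutant, 5 in wild type in minimal medium and 10 in wild type in rich medium. The ratio of the PCF11 mutant over wild type was 580 (248 to 1789), and 3667 of the PCF11 reads ended within 24 nt of the printed cleavage position. The atp3 gene on its own strand had 654, 665, 578 and 558 reads in the PAB2 mutant, the PCF11 mutant, wild type in minimal medium and wild type in rich medium. Its log2 ratio was -0.14 in the PCF11 mutant, beside 8.92 for its divergent window.

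Further windows were far higher in the PCF11 mutant than in any other library. The window of utp24, an endonuclease of ribosomal RNA processing, had 3 reads in the PAB2 mutant, 804 in the PCF11 mutant, 2 in wild type in minimal medium and 1 in wild type in rich medium. That of elg1, a subunit of a clamp-unloading replication factor C complex, had 21 reads in the PAB2 mutant, 587 in the PCF11 mutant, 1 in wild type in minimal medium and 5 in wild type in rich medium. The window of moa1, the meikin that directs kinetochore attachment in meiosis, had 9 in the PAB2 mutant, 514 in the PCF11 mutant, 1 in wild type in minimal medium and 5 in wild type in rich medium. In these 3 windows the PCF11 mutant stood apart from the other libraries, and the elg1 window was also higher in the PAB2 mutant than in its wild type, with a ratio of 3.41 (1.25 to 11.6).

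The gda1 window, of a Golgi nucleoside-diphosphatase, had 9 reads in the PAB2 mutant, 374 in the PCF11 mutant and 0 in both wild types. With 0 wild-type reads no ratio can be given, and the counting interval put the PCF11 mutant at least 79.7-fold higher. The window of apm4, a subunit of the AP-2 endocytic adaptor, had 7 reads in the PAB2 mutant, 130 in the PCF11 mutant and 0 in both wild types. By the counting interval it was at least 27.5-fold higher in the PCF11 mutant. The window of pcf11 itself was among the largest changes. It had 1 read in the PAB2 mutant, 386 in the PCF11 mutant, 0 in wild type in minimal medium and 2 in wild type in rich medium. The pcf11 window was at least 82.3-fold higher in the PCF11 mutant by the counting interval. Its main site lay 81 nt upstream of the pcf11 start codon, inside the annotated bounds of the pcf11 transcript on the other strand. As the allele is not given in the sources used here, whether the pcf11 locus itself is altered there was not tested.

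In the PAB2 mutant the largest changes were smaller in reads. The gea1 window, of an exchange factor for small GTPases of the secretory pathway, had 177 reads in the PAB2 mutant, 120 in the PCF11 mutant, 14 in wild type in minimal medium and 1 in wild type in rich medium. Its PAB2 ratio of 144 has a counting interval of 25.5 to 5709, as it rests on 1 wild-type read. Wild type in minimal medium was itself higher than in rich medium there. The window of SPAC630.06c, an uncharacterised gene, had 129 reads in the PAB2 mutant, 86 in the PCF11 mutant, 10 in wild type in minimal medium and 1 in wild type in rich medium, so both mutants were high there too.

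The window of cdc48, an AAA ATPase of ubiquitin-dependent protein degradation, had 121 reads in the PAB2 mutant, 8 in the PCF11 mutant, 3 in wild type in minimal medium and 4 in wild type in rich medium. Its PAB2 ratio was 24.6 (9.35 to 91.6), and 112 of the PAB2 reads ended within 24 nt of the printed cleavage position. Here the PAB2 mutant alone was high. The window of myo51, a type V myosin, had 108 reads in the PAB2 mutant, 17 in the PCF11 mutant, 3 in wild type in minimal medium and 3 in wild type in rich medium. That of rrn6, a subunit of an RNA polymerase I factor, had 75 in the PAB2 mutant, 8 in the PCF11 mutant, 5 in wild type in minimal medium and 2 in wild type in rich medium. The window of ppe1, a PP6-type phosphatase, had 116 reads in the PAB2 mutant, 4 in the PCF11 mutant, 10 in wild type in minimal medium and 4 in wild type in rich medium. The PAB2 mutant was the highest library in each of these 4 windows, and in the myo51 window the PCF11 mutant was also above wild type, with a ratio of 4.48 (1.29 to 23.9).

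Other windows were high in both mutants. That of sbh1, the beta subunit of the endoplasmic reticulum translocon, had 166 reads in the PAB2 mutant, 202 in the PCF11 mutant, 10 in wild type in minimal medium and 7 in wild type in rich medium. Its log2 ratios were 4.08 for the PAB2 mutant and 3.87 for the PCF11 mutant. The window of tms1, a hexitol dehydrogenase, had 572 reads in the PAB2 mutant, 506 in the PCF11 mutant, 73 in wild type in minimal medium and 190 in wild type in rich medium, with ratios of 2.45 (2.07 to 2.90) and 5.48 (4.28 to 7.10). The tms1 gene on its own strand had only 3 reads in the PAB2 mutant, 3 in the PCF11 mutant, 4 in wild type in minimal medium and 5 in wild type in rich medium. Its divergent reads thus outnumbered its own-strand reads in every library.

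Both mutants were also high in the window of mug37, a gene of the meiotic list, with 209 reads in the PAB2 mutant, 383 in the PCF11 mutant, 36 in wild type in minimal medium and 41 in wild type in rich medium. The ypp1 window, of a cargo transport protein, had 67 in the PAB2 mutant, 384 in the PCF11 mutant, 1 in wild type in minimal medium and 2 in wild type in rich medium. It was the single window among the 10 largest changes of both mutants.

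**Figure D3:**
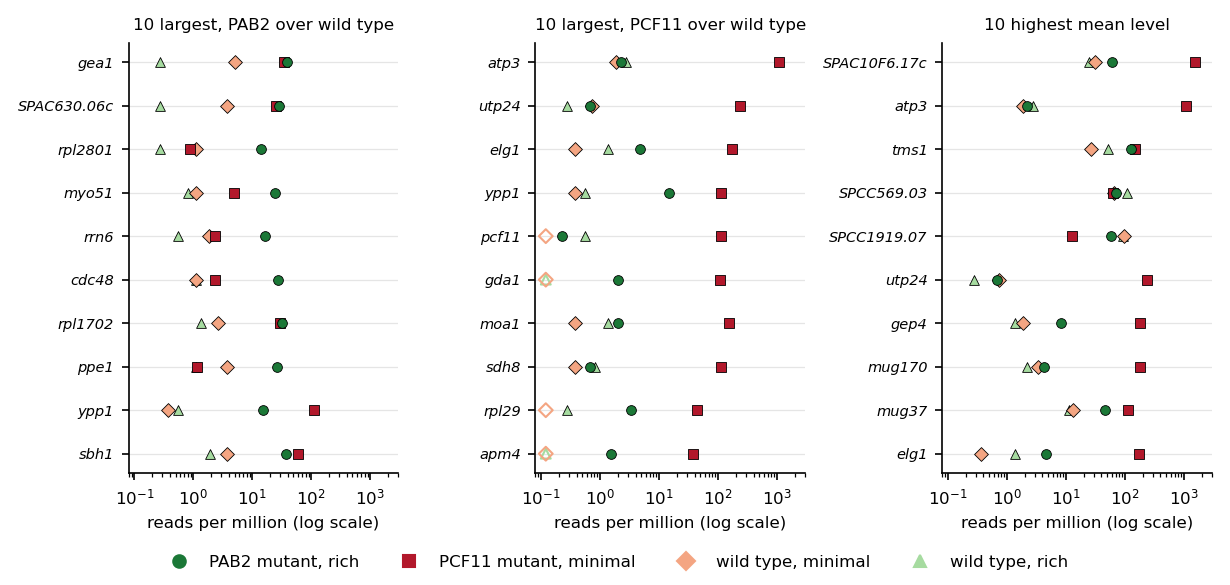
Level of named windows, in RPM on a log axis, with a marker per library. Open markers at the left edge stand for 0 reads. The left and middle panels hold the 10 windows chosen for the largest PAB2 and PCF11 ratios over wild type in the same medium. By that choice the mutant stands right of that wild type, and it also stands right of the other wild type in all 10 windows. The right panel holds the 10 highest mean levels, where a wild type has the highest level for SPCC569.03 and SPCC1919.07.

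A few windows went the other way. That of SPCC1919.07, an uncharacterised gene on chromosome III, had 257 reads in the PAB2 mutant, 43 in the PCF11 mutant, 256 in wild type in minimal medium and 343 in wild type in rich medium. The PCF11 mutant was low, with a ratio of 0.133 (0.0938 to 0.184), and the PAB2 ratio was 0.609 (0.516 to 0.717). The window of SPCC569.03, also uncharacterised and on chromosome III, had 319 reads in the PAB2 mutant, 215 in the PCF11 mutant, 176 in wild type in minimal medium and 402 in wild type in rich medium. Its site was thus used in every library, with ratios of 0.644 (0.555 to 0.748) for the PAB2 mutant and 0.965 (0.787 to 1.19) for the PCF11 mutant. The PCF11 direction turned with the scaling, to a log2 ratio of 0.83 with TMM on coding gene reads and 0.14 when scaled to coding gene reads.

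The windows of sfr1, a DNA recombination mediator, and of acl4 were lower in both mutants. The sfr1 window had 21 reads in the PAB2 mutant, 2 in the PCF11 mutant, 37 in wild type in minimal medium and 37 in wild type in rich medium. The acl4 window had 20 in the PAB2 mutant, 1 in the PCF11 mutant, 18 in wild type in minimal medium and 39 in wild type in rich medium. The window of aga1, a glutamate N-acetyltransferase, was above wild type in the PAB2 mutant and below it in the PCF11 mutant, with 163 reads in the PAB2 mutant, 23 in the PCF11 mutant, 81 in wild type in minimal medium and 70 in wild type in rich medium. That of mam2, the P-factor pheromone receptor, did so too, with 90 reads in the PAB2 mutant, 10 in the PCF11 mutant, 45 in wild type in minimal medium and 34 in wild type in rich medium. In the mam2 window the rise of the PAB2 mutant lay beyond the first 300 nt: within 300 nt of the start codon its log2 ratio was -0.39, in place of 1.08 over 500 nt.

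Between media in wild type the changes were small in reads. The window of rer1, a Golgi retrieval receptor family member, had 16 reads in minimal and 55 in rich medium, a ratio of 0.393 (0.210 to 0.696), and that of tms1 had a ratio of 0.519 (0.391 to 0.683). The largest rise in minimal medium among windows with at least 50 reads was that of dbl3, an uncharacterised gene, with 35 reads in minimal and 24 in rich medium. Its ratio was 1.97 (1.14 to 3.46).

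Windows were next grouped by the function of their gene. The windows of ribosomal protein genes had 705 reads in the PAB2 mutant, 545 in the PCF11 mutant, 37 in wild type in minimal medium and 79 in wild type in rich medium. Both mutants were high, with summed ratios of 7.25 (5.74 to 9.26) for the PAB2 mutant and 11.6 (8.34 to 16.7) for the PCF11 mutant, beside 2.55 and 8.47 over all divergent positions. Of 138 such genes, 59 had eligible bases and 32 had reads, and 5 windows passed 20 reads in each mutant's pair. Of these, 4 were higher in the PAB2 mutant and 5 in the PCF11 mutant, and none was lower in either. Over all windows that passed, 73.4% were higher in the PAB2 mutant and 82.9% in the PCF11 mutant, so these counts are near the background. Their medians on the log2 scale were 3.25 and 3.35, beside 1.83 and 3.80 over all windows that passed. The rps7 window alone held 315 reads in the PAB2 mutant and 26 in wild type in rich medium, and without it the PAB2 ratio was 5.98 (4.48 to 8.12). Without the rpl29 window, the highest in the PCF11 mutant, the PCF11 ratio was 8.48 (6.05 to 12.2).

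The members of this group did not move alike. The rpl1702 window, of the large-subunit protein uL22, had 141 reads in the PAB2 mutant, 102 in the PCF11 mutant, 7 in wild type in minimal medium and 5 in wild type in rich medium, so it was high in both mutants. The rpl2801 window, of uL15, had 64 in the PAB2 mutant, 3 in the PCF11 mutant, 3 in wild type in minimal medium and 1 in wild type in rich medium, so the PAB2 mutant alone was high. The rpl29 window had 15 reads in the PAB2 mutant, 148 in the PCF11 mutant, 0 in wild type in minimal medium and 1 in wild type in rich medium. In the rpl29 window the PCF11 mutant led, at least 31.3-fold higher than wild type in minimal medium by the counting interval.

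Fission yeast keeps some meiotic genes silent in growing cells partly through Pab2-dependent decay. The meiotic list was chosen by symbol, mostly those starting mug or meu, and not by such silencing. Of its 124 genes, 51 had eligible bases and 31 had reads. Their windows had 507 reads in the PAB2 mutant, 1330 in the PCF11 mutant, 161 in wild type in minimal medium and 187 in wild type in rich medium. The ratios, 2.20 (1.86 to 2.62) for the PAB2 mutant and 6.53 (5.54 to 7.74) for the PCF11 mutant, stand beside 2.55 and 8.47 over all divergent positions. The PAB2 value was within counting error of the whole, and with SPAC10F6.17c and atp3 left out the PCF11 ratio over all divergent positions was 6.13, inside the interval of the list. Of 7 windows that passed in the PAB2 pair 3 were higher and 0 lower, and of 6 in the PCF11 pair 4 were higher and 1 lower. Over all windows that passed, 73.4% were higher and 3.39% lower in the PAB2 mutant, and 82.9% were higher and 7.25% lower in the PCF11 mutant. The mug170 window, of an arrestin-family adaptor, had 19 reads in the PAB2 mutant, 609 in the PCF11 mutant, 9 in wild type in minimal medium and 8 in wild type in rich medium, and without it the PCF11 ratio of the list was 3.75 (3.14 to 4.5). Without mug37, the highest in the PAB2 mutant, the PAB2 ratio was 1.66 (1.36 to 2.03).

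The other lists held few reads. The 5 heat shock windows with reads had 53 in the PAB2 mutant, 60 in the PCF11 mutant, 3 in wild type in minimal medium and 1 in wild type in rich medium. Most of these were in the window of sks2, a ribosome-associated chaperone, with 48 reads in the PAB2 mutant, 55 in the PCF11 mutant, 2 in wild type in minimal medium and 0 in wild type in rich medium. It was at least 10.2-fold higher in the PAB2 mutant than in wild type in rich medium by the counting interval. Histone windows had 43 reads in the PAB2 mutant, 4 in the PCF11 mutant, 7 in wild type in minimal medium and 13 in wild type in rich medium, and all 43 of the PAB2 reads came from hht3. The windows of glycolytic genes had 1 to 3 reads in each library, too few to show a difference. Those of Tf2 retrotransposons and wtf genes had 6 reads in the PAB2 mutant, 36 in the PCF11 mutant, 1 in wild type in minimal medium and 0 in wild type in rich medium, and their near-identical copies make even these placements uncertain.

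The level rose along much of the window in both mutants. By 100-nt steps from the start codon, the ratio of the PAB2 mutant over wild type was 2.23, 2.16, 2.16, 4.40 and 2.45. That of the PCF11 mutant was 5.17, 12.2, 10.7, 7.64 and 8.93. Without SPAC10F6.17c and atp3, the PCF11 values were 5.18, 8.01, 8.13, 6.44 and 4.21, so the lowest value moved to the outermost step. The read-weighted median distance was 281 nt in the PAB2 mutant, 251 nt in the PCF11 mutant and 256 nt in both wild types. The PAB2 mutant had its largest ratio at 301 to 400 nt, with 2885 reads in the mutant and 533 in wild type in rich medium. In the step before, the SPCC569.03 site, at 256 nt, had 400 of the 857 reads in wild type in rich medium. The SPCC1919.07 site, at 405 nt, had 325 reads in that library, beside 870 at 401 to 500 nt. The PAB2 ratios of these steps without those sites were not computed.

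**Figure D4:**
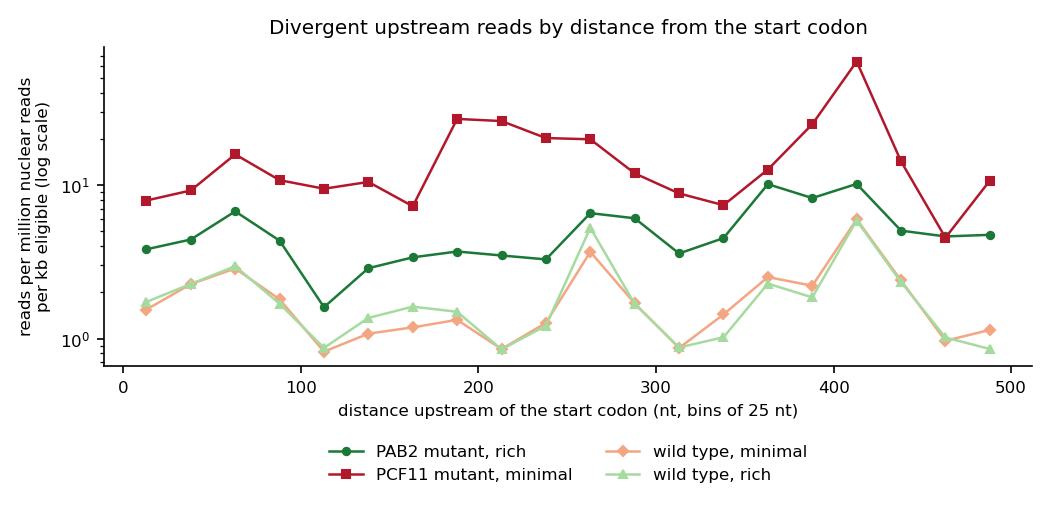
Divergent RPM per kb eligible, on a log axis, in bins of 25 nt upstream of the start codon, with a line per library. The PCF11 and PAB2 lines lie above both wild-type lines over nearly the whole window, and the wild-type lines run close together.

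A divergent position can also be reached by RNA that reads through from a gene upstream on the same strand, so positions were split by the distance past the end of that gene. At 501 to 1000, 1001 to 1500, 1501 to 2000 and over 2000 nt, the PAB2 ratio was 2.74, 2.71, 2.78 and 1.92, and the PCF11 ratio was 8.91, 7.03, 12.9 and 4.87. Without SPAC10F6.17c and atp3 the PCF11 values were 5.89, 7.05, 6.63 and 4.87. The ratios were lowest in the farthest group, yet both mutants remained above wild type there. The SPCC569.03 window alone supplied 402 of the 878 reads of that group in wild type in rich medium. In wild type in minimal medium it supplied 176 of 533. Whether the farthest group stays lowest without this window was not tested. The main sites of SPAC10F6.17c, atp3, utp24, gda1 and pcf11 lay 1873, 898, 1578, 2200 and 934 nt past the nearest own-strand gene. Those of tms1, sbh1, cdc48, gea1 and SPCC569.03 lay 1269, 982, 3117, 837 and 3608 nt past it. Long noncoding RNA genes are counted among these genes. With 2000 nt past every own-strand gene left out, the log2 ratio over all remaining positions was 0.94 for the PAB2 mutant and 2.28 for the PCF11 mutant, in place of 1.35 and 3.08. The SPCC569.03 window is among the positions kept there. The part of read-through in the remaining positions was not tested.

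**Figure D5:**
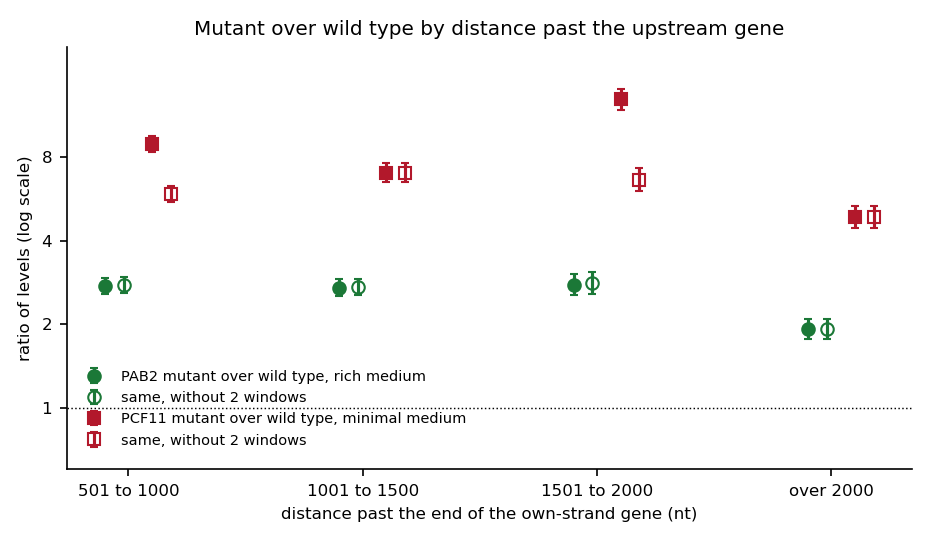
Ratio of the summed divergent level in the mutant over wild type, on a log axis, by distance past the end of the nearest gene upstream on the same strand, with 95% counting intervals. Open markers leave out the SPAC10F6.17c and atp3 windows, and the PCF11 value at 1501 to 2000 nt is 12.9 with them and 6.63 without.

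Both mutants had larger ratios in windows whose upstream neighbour is a tandem gene, on the same strand as the window's gene, than in head-to-head windows, where the neighbour runs the other way. In the 484 tandem windows the ratios were 3.45 (3.25 to 3.67) for the PAB2 mutant and 13.0 (12.1 to 13.9) for the PCF11 mutant. In the 588 head-to-head windows they were 2.10 (2.00 to 2.19) and 6.2 (5.88 to 6.48). Without SPAC10F6.17c and atp3 the PCF11 values were 9.42 in tandem and 4.59 in head-to-head windows, in the same order. The wild-type level per kb was lower in tandem windows, at 1.44 in minimal medium, than in head-to-head windows, at 2.18. In tandem windows the mutants stood at 5.17 and 18.8 per kb, and in head-to-head windows at 4.75 and 13.5, for the PAB2 and the PCF11 mutant. The SPCC569.03 and SPCC1919.07 windows are both head-to-head. They had 176 and 256 of the 1826 head-to-head reads in wild type in minimal medium, and 402 and 343 of the 2564 in rich medium. Whether the orientations differ without them was not tested.

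By chromosome, the PAB2 ratio was 2.98 on I, 2.97 on II and 1.67 on III, and the PCF11 ratio was 10.4, 10.9 and 3.19. Without SPAC10F6.17c and atp3, which lie on I and II, the PCF11 ratio was 7.24, 7.55 and 3.19. Chromosome III carries SPCC569.03 and SPCC1919.07, which had 402 and 343 of its 1256 reads in wild type in rich medium. In wild type in minimal medium they had 176 and 256 of its 799 reads. Whether the ratios on III stay low without these windows was not tested. Positions inside the annotated bounds of the target gene's own transcript had lower ratios, 1.83 for the PAB2 mutant and 4.09 for the PCF11 mutant, than positions outside, at 2.87 and 10.7. Without SPAC10F6.17c and atp3 the PCF11 ratio was 4.09 inside and 7.19 outside. The main SPCC1919.07 site, inside its gene's bounds, had 325 of the 1187 inside reads in wild type in rich medium. In wild type in minimal medium it had 241 of 920. The inside ratios without it were not computed.

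The target genes of higher windows were next read on their own strand. Of 121 genes whose window was higher in the PAB2 mutant and whose own-strand reads passed 20 in the pair, 1 was higher and 14 lower, and the median log2 ratio was -0.30, beside -0.22 over all coding genes, of which 4.13% were higher and 13.0% lower. Of 149 such genes for the PCF11 mutant, 12 were higher and 91 lower with a median of -1.34, beside -0.99 over all coding genes, of which 10.1% were higher and 49.8% lower. Across windows with at least 5 reads, the rank correlation of the divergent level with the own-strand level of the gene was 0.08 in the PAB2 mutant, 0.09 in the PCF11 mutant, -0.11 in wild type in minimal medium and -0.03 in wild type in rich medium (361, 385, 120 and 154 windows). These are descriptions across genes of the same library, which share depth.

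Positions within 24 nt were joined into sites, and 323 sites with at least 20 reads over the 4 libraries held 82.8% of divergent reads, in 253 windows. Most mutant reads at sites were at sites with at least 1 read in wild type. This is a weak measure of use, as the elg1 site had 587 reads in the PCF11 mutant and 1 in wild type in minimal medium. Of 304 sites with reads in the PAB2 mutant, 74.7% had reads in wild type in rich medium, and of 317 with reads in the PCF11 mutant, 69.4% had reads in wild type in minimal medium. Counted by reads, of 9065 PAB2 reads at sites, 91.2% were at sites with reads in wild type in rich medium, and of 26030 PCF11 reads, 83.0% were at sites with reads in wild type in minimal medium. Without the windows of SPAC10F6.17c and atp3 the PCF11 share was 74.2%. Between media, 88.1% of the sites of wild type in minimal medium, with 98.1% of their reads, had reads in rich medium, and depth differs between the libraries. Of 34 windows with at least 20 reads in the PAB2 mutant and in its wild type each, 33 had the same leading site in both. Of 17 such windows for the PCF11 mutant, 15 did. Windows with fewer wild-type reads, such as atp3 with 5 in minimal medium, did not enter this count. Between media in wild type the count was 21 of 22.

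AATAAA and GTA were more frequent at the sites than at places moved away from them. AATAAA, read on the strand of the RNA 10 to 35 nt before the cleavage position, was found at 24.8% (20.4% to 29.8%) of the 323 sites and at 781 of the 4120 most used 3' end sites of coding genes (17.8% to 20.2%). At places moved 200 nt downstream and 200 nt upstream of the divergent sites it was found at 4.64% and 3.41%. GTA in the 30 nt after the site was found at 59.8%, against 53.6% at coding genes and 37.5% and 35.6% at the moved places. Of the 52 sites with at least 20 wild-type reads, 19.2% (10.8% to 31.9%) had AATAAA and 42.3% (29.9% to 55.8%) had GTA. For these sites the GTA interval covers the values of the moved places, and the AATAAA interval lies above them. TNAAAC, the core that the meiotic RNA-removal factor Mmi1 reads, was searched in the 200 nt before the site on the RNA strand. It was found at 35.9% of sites, against 28.2% at coding genes and 41.5% and 36.8% at the moved places. It was therefore no more frequent near the divergent sites than at the moved places.

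Sites higher past 2-fold in the PCF11 mutant had AATAAA at 35.4% (28.4% to 43.2%) of 158, and those higher in the PAB2 mutant at 28.0% (20.4% to 37.2%) of 107. The other sites with 20 reads had it at 6 of 24 in the PCF11 pair and at 8 of 43 in the PAB2 pair, and the intervals overlap. By reads, sites with AATAAA held 31.0% in the PAB2 mutant, 52.1% in the PCF11 mutant, 27.6% in wild type in minimal medium and 24.7% in wild type in rich medium. Without SPAC10F6.17c and atp3, both of which have the signal, the values were 28.9% in the PAB2 mutant, 27.4% in the PCF11 mutant, 24.5% in wild type in minimal medium and 22.2% in wild type in rich medium, so the high PCF11 value rested on those windows. Reads followed by at least 6 A in the next 10 nt of the genome were 3.12% of divergent reads in the PAB2 mutant, 2.83% in the PCF11 mutant, 2.50% in wild type in minimal medium and 2.87% in wild type in rich medium. The shares were therefore alike across libraries.

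Genes of the decay and termination machinery were read on their own strand as background to these changes. Of 28 nuclear RNA decay genes, 0 were higher and 2 lower in the PAB2 mutant, with a median log2 ratio of 0.05, beside -0.22 over all coding genes, of which 4.13% were higher and 13.0% lower. Of 27 in the PCF11 pair, 2 were higher and 16 lower, with a median of -1.58, beside -0.99 over all coding genes, of which 10.1% were higher and 49.8% lower. The exosome nuclease gene rrp6 was higher in the PCF11 mutant, with 159 reads in the PAB2 mutant, 793 in the PCF11 mutant, 88 in wild type in minimal medium and 118 in wild type in rich medium. The gene of erh1, a partner of Mmi1 in meiotic RNA removal, was lower in both mutants, with 69 reads in the PAB2 mutant, 21 in the PCF11 mutant, 192 in wild type in minimal medium and 288 in wild type in rich medium. Of 22 cleavage, polyadenylation and termination genes in the PCF11 pair, 2 were higher and 12 lower, close to those shares over all coding genes, and of 21 in the PAB2 pair, 0 were higher and 1 lower. The helicase gene sen1, known for termination of noncoding transcription in budding yeast, had 1568 reads in the PAB2 mutant, 196 in the PCF11 mutant, 1260 in wild type in minimal medium and 1847 in wild type in rich medium. The PCF11 mutant was thus low for sen1, on the same RPM scale on which most coding genes were lower.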

How the data were processed

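Schizosaccharomyces pombe RNA was sequenced at its polyadenylated 3' ends, and the deposited files hold whole-number read counts per chromosome, strand and cleavage position. Per the submitters' processing notes, Bowtie2 and the build ASM294v2 were used, and the labels give no further step, version or strand rule. With 1 library per group, no test between groups was made.

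Genes came from RefSeq ASM294v3, whose nuclear chromosomes of 5579133, 4539804 and 2452883 nt were tested against the file positions: the base after a position with at least 20 reads was A at 0.523% to 0.954% of positions, against 30.3% to 31.1% at 8 nt downstream. Coding, RNA and pseudogenes and 500 nt past each were masked on their own strand. Mitochondrial and unplaced sequences were left out. Levels are reads per 1000000 nuclear reads (RPM), and log2 ratios of windows add 1 read. Ratios of counts have exact conditional 95% intervals and shares have Wilson intervals, which cover counting error only. PCR copies are not separate molecules.

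Named windows were the 10 with the highest mean level, the 10 largest and 5 smallest log2 ratios of each mutant and the 5 largest and 5 smallest between media (at least 50 reads in the pair), and up to 4 per gene list. The text gives those it needs, and rps7, outside this rule, was chosen after its values were seen. The members and lists were chosen with earlier results of these data known. The position rule was checked and tested on simulated data. Analyses used Python 3.11.15, pandas 2.3.3, scipy 1.17.1, and edgeR 4.0.16 for TMM factors only. Alternatives changed the scaling, the mask, the window, the read minimum and the reads added.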

Additional observations from a re-analysis of the deposited data

How the results depend on the processing

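Both mutants kept a higher summed divergent level than wild type under every alternative run, with log2 ratios of 0.94 to 1.86 for the PAB2 mutant (1.35 as reported) and 2.28 to 3.97 for the PCF11 mutant (3.08 as reported). The values that moved are given here by setting, and the cause was not tested except where fewer windows or positions entered.
With TMM on coding gene reads, the log2 ratio was 1.58 for the PAB2 mutant, 3.97 for the PCF11 mutant and -0.13 for wild type in minimal over rich medium, and 3 and 7 windows were lower in the PAB2 and the PCF11 mutant. Scaled to coding gene reads it was 1.41 for the PAB2 mutant and 3.27 for the PCF11 mutant.
With 1000 nt past own-strand genes left out, 86 windows were higher in the PAB2 mutant, the wild-type log2 ratio was -0.14 and 3 windows were higher in minimal medium. With 2000 nt left out, the log2 ratios were 0.94, 2.28 and -0.29 for the PAB2 mutant, the PCF11 mutant and wild type, with 27 higher and 1 lower, 28 higher and 1 lower, and 1 higher and 3 lower windows.
With long noncoding RNA genes not masked, the PAB2 log2 ratio was 1.86, and windows were 616 higher and 29 lower in the PAB2 mutant, 726 and 65 in the PCF11 mutant, and 31 and 35 between media.
With a window of 300 nt, the PAB2 log2 ratio was 1.13 with 60 windows higher, the PCF11 mutant had 96 higher and 7 lower, and wild type had a log2 ratio of -0.17 with 2 higher. The mam2 window had a log2 ratio of -0.39 in the PAB2 mutant there, in place of 1.08. Measured from the annotated transcript start, the log2 ratios were 1.69 for the PAB2 mutant and 3.40 for the PCF11 mutant, and 8 windows were lower in the PCF11 mutant.
With no gene on either strand, 74 windows were higher and 1 lower in the PAB2 mutant, the PCF11 log2 ratio was 3.23 with 86 higher and 6 lower, and wild type had -0.18 with 5 lower. With subtelomeres left out, the log2 ratios were 1.48 for the PAB2 mutant and 3.18 for the PCF11 mutant. Without the 10 highest windows, they were 1.61 for the PAB2 mutant, 2.66 for the PCF11 mutant and 0.039 for wild type in minimal over rich medium. Without SPAC10F6.17c and atp3, an alternative chosen after seeing the data, the PCF11 value was 2.62.
With at least 50 reads in the pair, windows were 50 higher and 3 lower in the PAB2 mutant, 77 and 5 in the PCF11 mutant, and 0 and 1 between media. With at least 10 reads, 10 were lower in the PAB2 mutant, 30 were lower in the PCF11 mutant, and 17 were higher and 17 lower between media. With 5 reads added, 4 were lower between media. Chosen on the libraries outside the comparison, also after seeing the data, 100 windows were higher and 31 lower in the PCF11 mutant.
Of 1192 log2 ratios of named windows recomputed under these alternatives, 1093 kept their sign and moved by less than 0.5, 88 kept it and moved by more, and 11 changed sign. All but mam2 of the 11 were within 2-fold as reported. In the PCF11 mutant these were SPCC569.03 (-0.05 as reported), dbl3 (-0.15) and mug35 (-0.30), at 0.83, 0.73 and 0.59 with TMM, and SPCC569.03 and dbl3, at 0.14 and 0.037 scaled to coding gene reads. With a window of 300 nt, bet3 was -0.77 in the PCF11 mutant (0.85 as reported) and mug35 was -0.83 in the PAB2 mutant (0.15). Between media 3 such values turned, in SPCC1919.07, dpe2 and bet3, each from within 0.2 of 0. Sparse wild-type counts limit every large ratio, since most windows have under 20 reads in all. No paired analysis was possible because each group has 1 library.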

Other observations

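The share of a window's reads at its most used site could differ between libraries. In the bet3 window, of a TRAPP complex subunit, the most used site had 27 reads in the PAB2 mutant, 75 in the PCF11 mutant, 4 in wild type in minimal medium and 10 in wild type in rich medium, whereas the whole window had 38, 95, 41 and 49. Most mutant reads of the window thus ended at this site, and most wild-type reads ended elsewhere. In the ypp1 window, the most used site had 26 reads in the PAB2 mutant and 355 in the PCF11 mutant and 0 in both wild types. In the rpl2801 window the most used site had 24 reads in the PAB2 mutant, 0 in the PCF11 mutant, 1 in wild type in minimal medium and 0 in wild type in rich medium. The ypp1 and rpl2801 windows have too few wild-type reads to compare the use of sites. In all, 56 of the 253 windows with a site had more than 1.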
